A study of Mus musculus with 12 samples.

Results

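The ribosomal proteins of the cytosolic ribosome were followed as transcripts in whole kidney from mice with adenine-induced chronic kidney disease (CKD), with and without iron dextran. Members were chosen by name: genes called Rpl or Rps with a number, Rplp0 to Rplp2 or Rpsa, that reached 1 FPKM in at least 4 of the 12 mice. Of 83 rows matching that pattern, 80 qualified, 48 of the large and 32 of the small subunit, out of 13148 genes tested. *Rpl6l*, *Rpl10l* and *Rpl39l* fell short, and *Rpl10l* was listed at 0 in every mouse. All members but *Rpl3l* reached 1 FPKM in all 12 mice.

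All animals were wild-type C57BL/6 mice, with 4 mice in each of 3 groups and 1 poly(A)-selected library per mouse. CKD mice ate a diet with 0.2% adenine for 8 weeks, from 8 to 16 weeks of age, and control mice the same diet without it. CKD+Fe mice received weekly intraperitoneal iron dextran at 0.5 g/kg, while control and CKD mice received phosphate-buffered saline. Values are FPKM, in which reads of a gene are divided by its transcript length and by the depth of the library, so a level is relative to the other transcripts of the same kidney. In whole tissue, fewer cells of a type and less RNA per cell cannot be told apart.

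Each ribosomal protein is present once per ribosome, apart from the acidic stalk proteins, and the genes are made in balance with one another. Most of their mRNAs begin with a C followed by a run of pyrimidines, the 5′ terminal oligopyrimidine (TOP) tract, through which mTOR and Larp1 control their translation and stability. A few members have paralogs that replace the usual protein in some tissues or stress states: Rpl3l is known from heart and skeletal muscle, Rps27l is a p53-induced gene, and Rpl22l1 is restrained by Rpl22 itself.

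The start of 10 members is shown because the results below turn on them: *Rps6* as a classical TOP gene, 2 members that rose most, 1 that did not rise, and the paralogs with the partners for which a sequence was at hand. Each line gives the 30 bases from 10 before to 20 after the RefSeq start (GRCm38.p6), 5′ to 3′ along the gene, with the longest run of C and T in capitals.
Rps6, chr4:86857348-86857377, minus strand: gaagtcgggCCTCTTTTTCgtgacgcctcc
Rps4x, chrX:102189372-102189401, minus strand: gctgggcggagcaacccaggCTCCagcgcg
Rpl12, chr2:32961702-32961731, plus strand: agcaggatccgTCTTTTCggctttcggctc
Rpl28, chr7:4792955-4792984, plus strand: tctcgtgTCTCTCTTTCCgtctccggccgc
Rpl22, chr4:152325716-152325745, plus strand: CCTgggaaaagcaatagctggccgatcgtt
Rpl22l1, chr3:28805498-28805527, plus strand: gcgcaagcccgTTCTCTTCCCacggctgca
Rps27, chr3:90213629-90213658, minus strand: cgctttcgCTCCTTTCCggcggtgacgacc
Rps27l, chr9:66946076-66946105, plus strand: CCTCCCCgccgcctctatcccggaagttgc
Rpl3l, chr17:24727816-24727845, plus strand: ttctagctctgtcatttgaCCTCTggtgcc
Rpl7l1, chr17:46782637-46782666, minus strand: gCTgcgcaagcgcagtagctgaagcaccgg

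A pyrimidine run next to the start was visible in *Rps6*, *Rpl28*, *Rps27*, *Rpl12* and *Rpl22l1*, whereas the windows of *Rps4x*, *Rpl22*, *Rpl7l1* and *Rpl3l* held runs of at most 5. RefSeq promoters were available for 60 of the 80 members, with 72 start sites. A run of at least 8 pyrimidines between 25 bases before and 25 after the start occurred at 32 of the 72 sites (44.4%), against 19.4% of 12966 start sites of all genes tested. A C at the start itself followed by 4 pyrimidines occurred at 13 of the 72 (18.1%), against 2.28% of all. The motif CCGGAAG, counted on both strands of the 300 bases from 250 before to 50 after the start, was found at 26 of the 72 (36.1%), against 16.2% of all. The 31 members with a run and the 29 without had median log2 differences of 0.52 and 0.49 in CKD, so the 2 sets lay close together. These matches are descriptions of letters, and the annotated start may lie away from the start used in kidney. The printed start lay 153 bases from the 5′ end of the gene's deposited position in *Rpl12*, 91 in *Rpl28*, 72 in *Rpl22l1* and 45 in *Rps6*. In the other printed genes it lay at most 16 bases away.

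Ribosomal protein transcripts were abundant in every kidney. Group means of single members ranged from 3.28 to 1263 FPKM in control mice with a median of 368, and 75 of 80 lay between 100 and 1000 FPKM. In CKD mice the median was 518 and 9 members exceeded 1000 FPKM, as did 9 in CKD+Fe mice, against 3 in control mice. The highest member, *Rps27* (ENSMUSG00000090733, chr3:90212522-90213651), a zinc finger protein of the small subunit, measured 1341, 1134, 1612 and 964 FPKM in the 4 control mice, 1718, 2000.4, 2124 and 1715 in the 4 CKD mice and 2024, 1816, 1579 and 2108 in the 4 CKD+Fe mice. The 80 members together made up 5.26, 4.79, 6.23 and 4.41% of all FPKM in the control mice, 7.67, 9.66, 9.67 and 7.84% in the CKD mice and 9.09, 8.13, 7.70 and 8.87% in the CKD+Fe mice. The shares of the adenine-fed mice lay above those of all control mice. *Kap*, a proximal tubule transcript, alone took 10.6 to 12.7% of all FPKM in control and 0.188 to 1.25% in CKD mice; without it the members' shares were 4.93 to 7.14% in control and 7.74 to 9.80% in CKD mice.

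**Figure D1:**
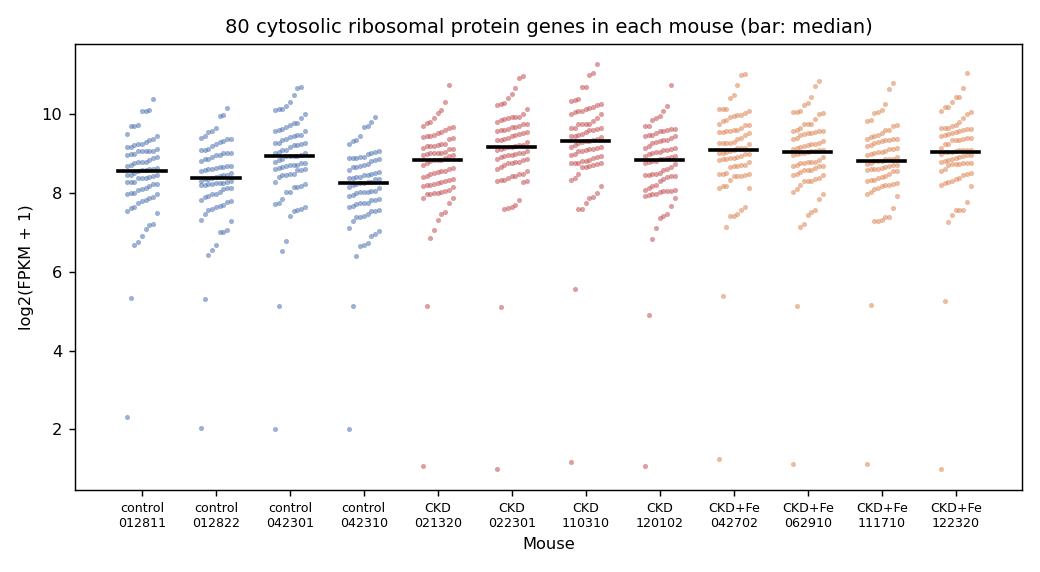
Level of each of the 80 cytosolic ribosomal protein genes, as log2(FPKM + 1), in each of the 12 mice, with a bar at the median of the mouse and colours for control, CKD and CKD+Fe. The median bar runs from 8.26 to 8.93 in control mice and from 8.82 to 9.31 in CKD mice, and the lowest point of each mouse is *Rpl3l*.

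The first question was whether these transcripts differed between CKD and control kidneys. By limma on log2(FPKM + 1), 45 of the 80 members were higher in CKD and 2, *Rpl3l* and *Rps27l*, were lower, at a Benjamini-Hochberg adjusted p under 0.05 over all genes tested. Among all 13148 genes, 54.6% were called higher and 13.3% lower, so the members' higher count was near the background and their lower count under it. The median difference was 0.50 for the members and 0.50 for all genes, the members lying 0.0065 lower. Differences were positive for 76 members and ranged from -1.01 to 1.11. The small subunit had 20 of 32 members called higher and 1 lower with a median of 0.58, and the large subunit 25 of 48 higher and 1 lower with a median of 0.45. In 28 members every CKD mouse lay above every control mouse and in 2 every CKD mouse lay below, where the shares over all genes were 44.6% and 10.5%.

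The direction rested on the scaling between mice. In the deposited FPKM the median gene was 0.50 higher in CKD. After median-of-ratios rescaling, which moved the median of all genes to 0.012, 2 members were called higher and 6 lower, with a median of -0.082, where 28.8% of all genes were higher and 29.3% lower. *Rps4x* (0.53, adjusted p = 0.00836) and *Rpl3* (0.36, adjusted p = 0.0466) were the 2 still higher, and *Rpl3l*, *Rps27l*, *Rpl28*, *Rpl7l1*, *Rpl35a* and *Rpl7a* were the 6 lower. With each mouse scaled to the same total, 74 members were higher and 1 lower with a median of 0.76, beside 0.78 for all genes. Quantile normalization also gave 74 higher and 1 lower with a median of 0.82, beside -0.029 for all genes. The shares of all genes called under equal-total and quantile scaling are not reported here, so these counts have no background beside them. Other abundant transcripts lay lower than the members: the 844 other genes with a mean of at least 100 FPKM had a median of -0.40, with 182 called higher and 414 lower, and of -0.98 after median-of-ratios rescaling. This contrast between the sets was not tested.

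**Figure D2:**
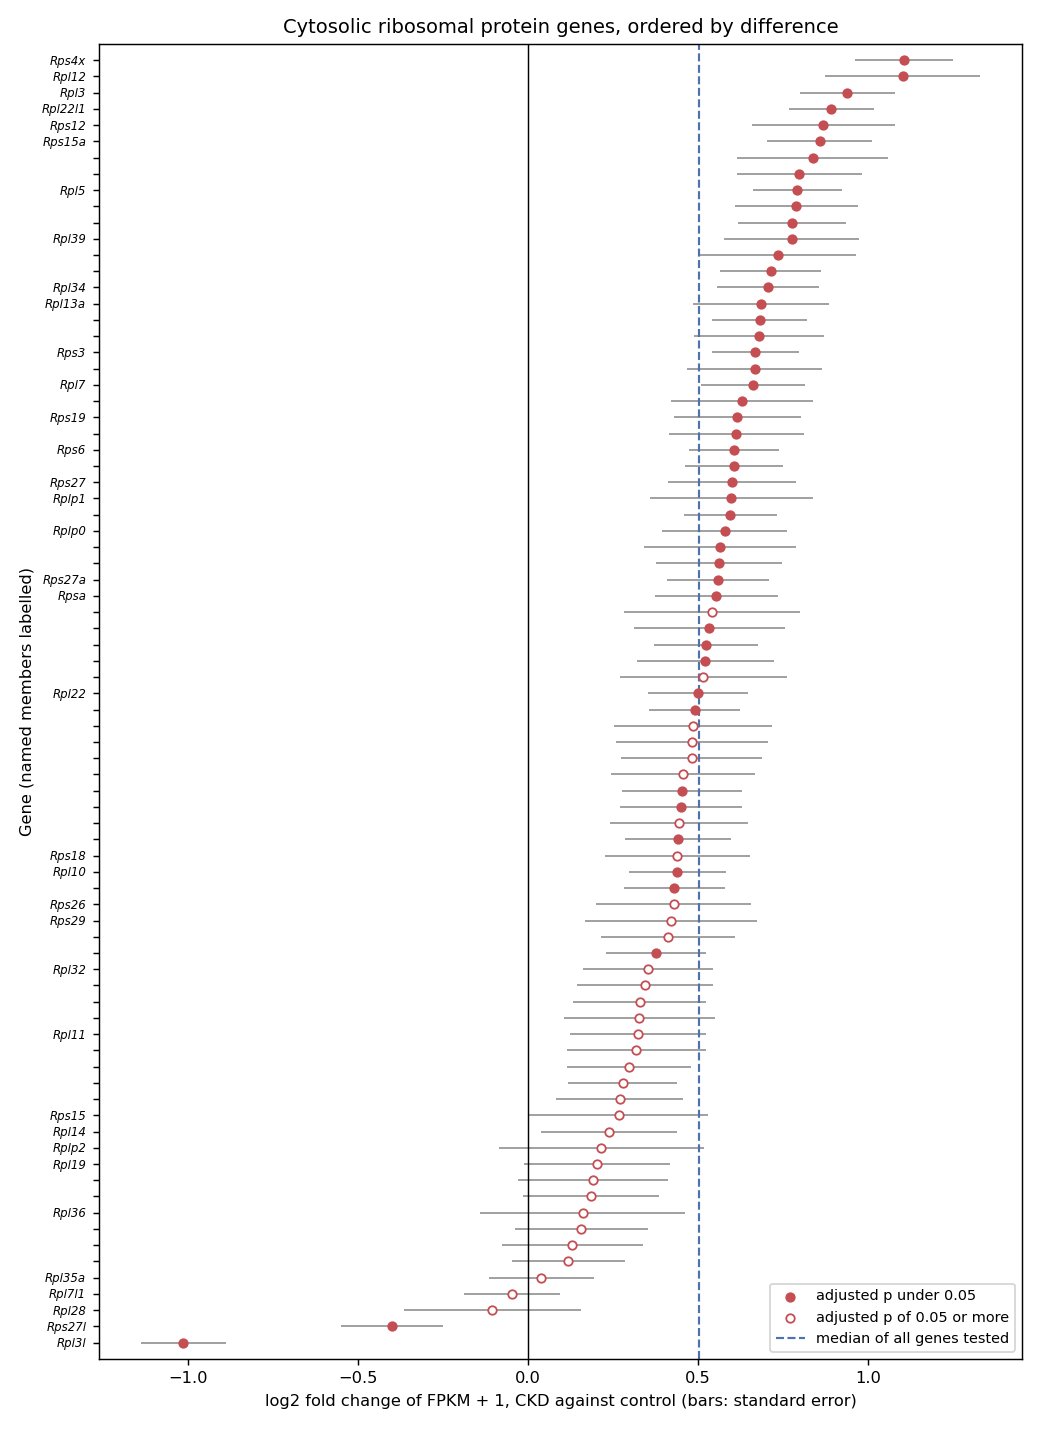
Difference between CKD and control kidneys for each of the 80 members, as the log2 fold change of FPKM + 1 with its standard error, ordered from *Rpl3l* at -1.01 to *Rps4x* at 1.11. Filled points passed the adjusted threshold of 0.05, open points did not, the dashed line is the median of all genes tested at 0.50, and the 36 members named by rule are labelled; after median-of-ratios rescaling 2 members stay higher and 6 are lower.

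To remove the scaling between mice, the members' median of each mouse was subtracted from every gene of that mouse. On this scale 7 members were higher and 9 lower in CKD, where 19% of all genes were higher and 23.2% lower, and the members themselves were the reference. *Rps4x* (ENSMUSG00000031320, chrX:102184941-102189394), an X-linked gene of the small subunit, measured 407, 400.3, 339 and 337 FPKM in the 4 control mice, 697, 944, 859 and 709 in the 4 CKD mice and 767, 729.6, 686 and 797 in the 4 CKD+Fe mice. All CKD and all CKD+Fe mice lay above the highest control mouse. The difference was 1.11 ± 0.14 (SE, adjusted p = 2.21e-05) in the deposited FPKM and 0.61 ± 0.16 (SE, adjusted p = 0.00547) relative to the members' median. *Rpl12* (ENSMUSG00000038900, chr2:32961559-32965345), which sits at the base of the stalk, measured 178, 157, 301 and 129 FPKM in the 4 control mice, 316, 496, 430.3 and 345 in the 4 CKD mice and 411, 369.9, 346 and 435 in the 4 CKD+Fe mice. Control mouse 042301 was the highest of its group by a wide gap and still lay under the lowest CKD mouse. Its difference was 1.10 ± 0.23 (SE, adjusted p = 0.000821), and 0.61 ± 0.14 (SE, adjusted p = 0.00254) relative to the members; after median-of-ratios rescaling it was 0.53 (adjusted p = 0.0569).

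*Rpl3* (ENSMUSG00000060036, chr15:80077794-80091868), which reaches into the peptidyl transferase centre, measured 225, 202, 189 and 188 FPKM in the 4 control mice, 336, 415, 457 and 344 in the 4 CKD mice and 407, 349, 319 and 374 in the 4 CKD+Fe mice. The groups of control and CKD mice did not overlap, with a difference of 0.94 ± 0.14 (SE, adjusted p = 6.24e-05), and of 0.44 ± 0.15 (SE, adjusted p = 0.0241) relative to the members. *Rps12* measured 533, 447, 816 and 466 FPKM in the 4 control mice, 826, 1219.7, 1205 and 829 in the 4 CKD mice and 1125, 1049.5, 909.9 and 1075 in the 4 CKD+Fe mice. The difference of this small-subunit protein was 0.87 ± 0.21 (SE, adjusted p = 0.00251), and 0.37 ± 0.11 (SE, adjusted p = 0.0149) relative to the members. *Rps15a* gave 0.36 ± 0.11 (SE, adjusted p = 0.0182) on the relative scale. The other 2 members higher on the relative scale, singled out after their values were seen, were *Rps16* at 0.34 ± 0.13 (SE, adjusted p = 0.0448) and *Rpl36a* at 0.30 ± 0.11 (SE, adjusted p = 0.0415). The 4 X-linked members, *Rps4x*, *Rpl10*, *Rpl36a* and *Rpl39*, were all called higher in the deposited FPKM, with a median of 0.79. *Rpl10*, which helps form the peptidyl transferase centre, had 0.44 ± 0.14 (SE, adjusted p = 0.0147) there and turned to -0.14 (adjusted p = 0.43) after median-of-ratios rescaling.

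At the low end, *Rpl28* (ENSMUSG00000030432, chr7:4792874-4795066), a large-subunit protein, measured 349, 349, 589 and 277 FPKM in the 4 control mice, 261, 387, 555 and 265 in the 4 CKD mice and 418, 407, 321 and 433 in the 4 CKD+Fe mice. The groups overlapped widely in the deposited FPKM, at -0.10 ± 0.26 (SE, adjusted p = 0.73), while relative to the members it was lower, at -0.60 ± 0.15 (SE, adjusted p = 0.00481). *Rpl35a* (ENSMUSG00000060636, chr16:33056453-33060189), one of the genes mutated in Diamond-Blackfan anemia, measured 505, 402, 610.1 and 403 FPKM in the 4 control mice, 455, 514, 540.4 and 439.9 in the 4 CKD mice and 468, 506, 433 and 484 in the 4 CKD+Fe mice. Its levels in CKD lay inside the range of the control mice, a difference of 0.039 ± 0.16 (SE, adjusted p = 0.831), and relative to the members it was -0.46 ± 0.11 (SE, adjusted p = 0.00373). Among the other lower members, chosen after their values were seen, were *Rpl7a* at -0.38 ± 0.10 (SE, adjusted p = 0.0086), *Rps2* at -0.36 ± 0.12 (SE, adjusted p = 0.0234) and *Rpl24* at -0.34 ± 0.11 (SE, adjusted p = 0.0191), besides the 3 paralogs below. Leaving out CKD mouse 110310 raised the lower count from 9 to 14, and leaving out control mouse 012822 or CKD mouse 120102 cut the higher count from 7 to 4.

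The paralogs *Rpl3l* and *Rps27l* were the 2 members called lower. Among the 76 members that are not paralogs, 44 were called higher and none lower in the deposited FPKM, with 47 higher and none lower at an unadjusted p under 0.05. Each of 4 paralogs was compared with its canonical gene as a log2 ratio of FPKM + 1 within a mouse, in which the scaling between mice nearly cancels, and shares in percent are of the FPKM as deposited. An exact two-sided permutation test was used, whose smallest p with 4 against 4 mice is 0.0286, adjusted over 12 tests. An adjusted p of 0.049 is that smallest p after adjustment, so ratios called at 0.049 pass or fail together. Its value depends on how many of the 12 tests reach the smallest p. Tests of CKD+Fe against control, which use the same control mice, are among them. *Rpl3l* (ENSMUSG00000002500, chr17:24727820-24736143) measured 3.95, 3.11, 3.03 and 3.04 FPKM in control mice, 1.11, 0.995, 1.26 and 1.09 in CKD mice and 1.39, 1.17, 1.18 and 0.979 in CKD+Fe mice. Every adenine-fed mouse was below every control mouse. The difference was -1.01 ± 0.12 (SE, adjusted p = 1.37e-05), on a log2(FPKM + 1) scale that understates a change at such low levels. *Rpl3l* stood at 1.63% ± 0.0927 of *Rpl3* in control (SD, n = 4), 0.291% ± 0.0416 in CKD and 0.327% ± 0.0459 in CKD+Fe kidneys. CKD differed from control by -1.95 on the log2 scale (adjusted p = 0.049) in the exact permutation test on FPKM + 1, and by -2.42 (adjusted p = 0.049) with a pseudocount of 0.1, so the size of the ratio rests on the pseudocount.

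*Rps27l* (ENSMUSG00000036781, chr9:66946086-66949516) measured 399, 351, 513 and 331 FPKM in the 4 control mice, 296, 321, 321 and 257 in the 4 CKD mice and 287, 325, 314 and 324 in the 4 CKD+Fe mice. Every CKD mouse was below every control mouse while its partner *Rps27* went up. The difference was -0.40 ± 0.15 (SE, adjusted p = 0.0297), and -0.89 ± 0.12 (SE, adjusted p = 4.52e-05) relative to the members. In the deposited FPKM this call was lost without control mouse 012811 or 042301 or CKD mouse 021320 or 120102, 4 of the 8 mice, with adjusted p up to 0.0891 and differences from -0.48 to -0.27. It was also lost with quantile normalization, at -0.042 (adjusted p = 0.769), with each mouse scaled to the same total, at -0.13 (adjusted p = 0.333), and with only the 2 groups fitted, while median-of-ratios rescaling gave -0.98 (adjusted p = 0.000129). As a share of *Rps27* it was 29.8, 31, 31.8 and 34.3% in control mice, 17.2, 16, 15.1 and 15% in CKD mice and 14.2, 17.9, 19.9 and 15.4% in CKD+Fe mice. The ratio in CKD differed from control by -0.9998 on the log2 scale (adjusted p = 0.049) in the exact permutation test, and no value of a CKD or CKD+Fe mouse reached those of control mice. The start windows of both genes printed above hold pyrimidine runs, in *Rps27* across the start and in *Rps27l* before it.

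*Rpl22l1* went the other way. *Rpl22l1* (ENSMUSG00000039221, chr3:28805436-28807424) measured 107, 92.4, 109 and 101 FPKM in the 4 control mice, 181, 224, 192 and 168 in the 4 CKD mice and 141, 172, 167 and 171 in the 4 CKD+Fe mice. Every CKD mouse exceeded every control mouse, with a difference of 0.89 ± 0.12 (SE, adjusted p = 3.88e-05); it was 0.32 (adjusted p = 0.0516) after median-of-ratios rescaling and 0.40 ± 0.16 (SE, adjusted p = 0.0563) relative to the members. *Rpl22*, whose protein represses *Rpl22l1*, had 0.50 ± 0.15 (SE, adjusted p = 0.00851), which turned to -0.077 (adjusted p = 0.684) with median-of-ratios rescaling. *Rpl22l1* stood at 28.5, 27.9, 25.2 and 32.4% of *Rpl22* in control mice, 40.7, 39.3, 33.7 and 36.3% in CKD mice and 27, 32.5, 37.4 and 32.9% in CKD+Fe mice. CKD was above control by 0.39 on the log2 scale (adjusted p = 0.049) in the exact permutation test, and CKD+Fe mice overlapped both groups. *Rpl7l1* (ENSMUSG00000063888, chr17:46773907-46782656) measured 39.4, 38.5, 33.8 and 34.1 FPKM in control and 34.2, 33.7, 46.4 and 28.7 in CKD mice, a difference of -0.047 ± 0.14 (SE, adjusted p = 0.78), while *Rpl7* had 0.66 ± 0.15 (SE, adjusted p = 0.00179). It fell from 7.5% ± 1.26 of *Rpl7* in control (SD, n = 4) to 4.56% ± 0.698 in CKD kidneys, a difference of -0.71 on the log2 scale (adjusted p = 0.049) in the exact permutation test.

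**Figure D3:**
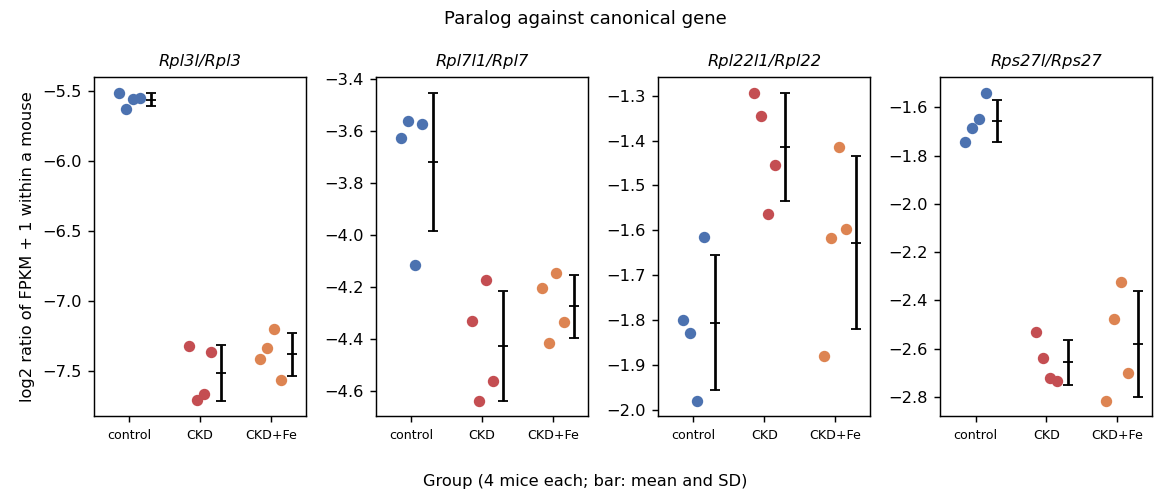
Log2 ratio of each paralog to its canonical gene within a mouse, for the 3 groups of 4 mice, with the mean and SD beside the points and a separate vertical scale in each panel. CKD mice lie below all control mice for *Rpl3l*, *Rpl7l1* and *Rps27l* and above all of them for *Rpl22l1*.

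Several members have known roles beyond the ribosome. *Rpl5* and *Rpl11*, which bind Mdm2 when ribosome assembly is disturbed, had differences of 0.79 ± 0.13 (SE, adjusted p = 0.000148) and 0.32 ± 0.20 (SE, adjusted p = 0.166). Relative to the members' median neither passed. *Rps6*, the phosphorylation target of S6 kinase, measured 222, 187, 193 and 185 FPKM in control and 263, 313, 359 and 271 in CKD mice. The groups did not overlap, at 0.61 ± 0.13 (SE, adjusted p = 0.00124), and 0.029 (adjusted p = 0.87) after median-of-ratios rescaling. *Rps19*, the gene most often mutated in Diamond-Blackfan anemia, had 0.61 ± 0.19 (SE, adjusted p = 0.01), *Rps3* 0.67 ± 0.13 (SE, adjusted p = 0.000447), *Rpsa*, also known as the laminin receptor, 0.55 ± 0.18 (SE, adjusted p = 0.0155), and *Rps27a*, made as a fusion with ubiquitin, 0.56 ± 0.15 (SE, adjusted p = 0.00483). The call on *Rpsa* was lost without control mouse 042310 (adjusted p = 0.0522). The known-role list holds 11 members, among them *Rpl10*, *Rplp0*, *Rplp1* and *Rplp2*, which are described here by their part in the ribosome. Of these 11 members 9 were called higher and none lower, beside 54.6% and 13.3% of all genes. No member of the list passed in either direction after median-of-ratios rescaling, which turned *Rpl11*, *Rpl10*, *Rpsa*, *Rps27a* and *Rplp2* below 0.

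The stalk proteins recruit elongation factors. *Rplp1* measured 1075, 988, 1435 and 888 FPKM in the 4 control mice, 1265, 1933, 2461 and 1179 in the 4 CKD mice and 2080.1, 1674, 1763 and 1633 in the 4 CKD+Fe mice. CKD mice 022301 and 110310 lay above all control mice and the other 2 within their range, at 0.60 ± 0.24 (SE, adjusted p = 0.0399). The call on *Rplp1* was lost without control mouse 012811, 012822 or 042310 or CKD mouse 022301 or 110310, 5 of the 8 mice, with adjusted p up to 0.115 and differences from 0.40 to 0.75. It was also lost after median-of-ratios rescaling, at 0.020 (adjusted p = 0.95), with no filter on low values and with only the 2 groups fitted. *Rplp0* had 0.58 ± 0.18 (SE, adjusted p = 0.0129). *Rplp2* measured 352, 305, 419.6 and 241 FPKM in the 4 control mice, 281, 341, 712 and 289.6 in the 4 CKD mice and 600.3, 351, 305 and 302 in the 4 CKD+Fe mice. CKD mouse 110310 and CKD+Fe mouse 042702 lay far above the rest of their groups, and the difference was 0.22 ± 0.30 (SE, adjusted p = 0.538). Ribosomal protein genes are common reference genes in RT-qPCR, and 5 members were examined for this. *Rpl13a*, at 0.68 ± 0.20 (SE, adjusted p = 0.00807), and *Rplp0* were called higher in CKD, while *Rps18* had 0.44 ± 0.21 (SE, adjusted p = 0.0824), *Rpl32* 0.35 ± 0.19 (SE, adjusted p = 0.114) and *Rpl19* 0.20 ± 0.21 (SE, adjusted p = 0.414). None of the 5 was called after median-of-ratios rescaling, when they ranged from -0.37 for *Rpl19* to 0.11 for *Rpl13a*. *Rps15*, among the 3 most abundant members, had 0.27 ± 0.26 (SE, adjusted p = 0.382).

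The second question was whether iron dextran altered these transcripts in CKD. No member was called higher or lower in CKD+Fe against CKD by limma, and none reached an unadjusted p under 0.05; of all genes, 0.00761% were called higher and 0% lower. The median difference was -0.0032 for the members and -0.00050 for all genes. Differences ran from -0.23 for *Rpl22l1* to 0.30 for *Rpl36*, a large-subunit protein, and the lowest adjusted p was 0.887. *Rpl36* measured 385, 338, 687 and 311 FPKM in the 4 control mice, 309.9, 578, 769.8 and 314 in the 4 CKD mice and 662, 514, 560.3 and 523 in the 4 CKD+Fe mice. The CKD+Fe mice all lay within the range of the CKD mice, and the difference was 0.30 ± 0.30 (SE, adjusted p = 0.971). The 95% interval was -0.35 to 0.95 for *Rpl36* and -0.50 to 0.039 for *Rpl22l1*. Over the members these intervals stayed between -0.65 and 0.95, so a difference of 1 on the log2(FPKM + 1) scale lay outside the interval of all 80. Such a difference is close to a 2-fold change in FPKM for all members but the low *Rpl3l*, where it is a larger one. Smaller differences were not resolved with 4 mice a group.

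*Rps3*, a small-subunit protein at the mRNA entry site, was the 1 member in which every CKD+Fe mouse lay below every CKD mouse. It measured 584, 621, 641 and 567 FPKM in CKD and 566, 538, 481 and 541 in CKD+Fe mice, a difference of -0.18 ± 0.13 (SE, adjusted p = 0.95). In no member did every CKD+Fe mouse lie above, where the shares of all genes were 1.35% above and 1.09% below. *Rpl39*, *Rps15a* and *Rpl34* had the next lowest differences, -0.21 ± 0.20 (SE, adjusted p = 0.969), -0.18 ± 0.16 (SE, adjusted p = 0.963) and -0.16 ± 0.15 (SE, adjusted p = 0.966), and *Rpl28*, *Rpl14*, *Rps29* and *Rps26* the next highest after *Rpl36*, 0.17, 0.15, 0.13 and 0.13, with adjusted p from 0.984 to 0.993. The ratio *Rpl22l1* to *Rpl22* differed between CKD+Fe and CKD by -0.21 on the log2 scale (adjusted p = 0.171) in the exact permutation test, and the other 3 ratios by 0.076 to 0.15 with adjusted p from 0.343 to 0.571.

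CKD+Fe kidneys were also set against the same control mice. There 45 members were called higher and 1, *Rpl3l*, lower, where 54.4% of all genes were higher and 11% lower, and the median was 0.50 for the members and 0.50 for all genes. Without control mouse 042310 the higher count was 29. Relative to the members' median 7 were higher and 4 lower, where 17.9% of all genes were higher and 19.2% lower. *Rpl12* at 0.64, *Rps4x* at 0.56, *Rps12* at 0.47 and *Rpl3* at 0.39 were among the higher, and *Rpl3l* at -1.43, *Rps27l* at -0.78, *Rpl35a* at -0.46 and *Rpl7a* at -0.31 were the lower. After median-of-ratios rescaling 1 member was higher and 4 lower. The share of all genes called in that fit is not reported here.

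Within each group the members moved together from mouse to mouse. Of the spread of the 80 members within groups, 85.0% lay on 1 component, on which every member had a loading of the same sign. Control mouse 042301 had 71 of 80 members above the mean of the other control mice, by a median of 1.43-fold, and control mouse 042310 had none above, at 0.75-fold. In CKD, mouse 110310 had 79 of 80 above at 1.31-fold and mouse 022301 had 75 above at 1.17-fold, while mice 021320 and 120102 had none, at 0.79-fold and 0.81-fold. In CKD+Fe, mouse 111710 was lowest at 0.85-fold. Over all genes the median of a mouse deviated from the others of its group by at most 0.090 on the log2 scale. The component was not computed for other gene sets. Summed FPKM of mitochondrial ribosomal protein genes was also highest in control mouse 042301 (6575) and lowest in 042310 (4395). In CKD it was highest in mouse 110310 (4848) and lowest in 120102 (3146). In CKD+Fe the order differed, with mouse 062910 highest (4321) and 122320 lowest (4017). The summed FPKM of the red blood cell markers was 102, 107 and 114 in mice 042301, 022301 and 110310 and 4.94 to 52.4 in the others. Macrophage markers summed to 256 FPKM in mouse 042301 and to 124 to 169 in the other control mice. Their sums were 3792 and 2899 in mice 022301 and 110310, and 1801 and 1835 in mice 021320 and 120102. In CKD+Fe mice 042702, 062910, 111710 and 122320 they were 3778, 1683, 2741 and 2289. Over the 80 members, the deviation of a mouse from the others of its group had Spearman correlations with the GC content of the transcript from -0.21 to 0.15 in control, -0.53 to 0.56 in CKD and -0.40 to 0.61 in CKD+Fe mice, highest in CKD+Fe mouse 042702 and CKD mouse 110310 and lowest in CKD mouse 021320, values that share library and base composition. The part of these cell markers and of GC content in the pattern was not tested. Mice 042301, 110310 and 042702 had the lowest limma array weight of their groups. Without them 59 members were higher and 2 lower in CKD with a median of 0.53. Of all 13148 genes 7811 were then higher and 2063 lower, with a median of 0.54. No member was called between CKD+Fe and CKD, where 51 of all genes were higher and 33 lower.

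Transcripts for the mitochondrial ribosome, which is built from a separate set of nuclear genes, were mostly lower in CKD. The genes were chosen by the names Mrpl and Mrps, and whether each product is part of the mitochondrial ribosome was not checked. Of 77 such genes 52 were lower and 2 higher, with a median of -0.49, where 13.3% of all genes were lower and 54.6% higher. After median-of-ratios rescaling 72 were lower and none higher, with a median of -1.06, where 29.3% of all genes were lower and 28.8% higher. The fall was not particular to these genes. The 844 abundant genes outside the members, with a mean of at least 100 FPKM, had a median of -0.40, with 414 lower and 182 higher. After rescaling their median was -0.98, with 597 lower and 96 higher. The 2 sets were not compared by a test. Among these genes chosen by name, *Mrps36* was lowest at -1.16 ± 0.17 (SE, adjusted p = 6.42e-05) and *Mrpl23* highest at 0.60 ± 0.17 (SE, adjusted p = 0.00744). The median log2 level of the cytosolic members exceeded that of the mitochondrial genes by 2.72, 2.60, 2.95 and 2.57 in the control mice, 3.59, 3.89, 3.66 and 3.79 in the CKD mice and 3.55, 3.55, 3.40 and 3.67 in the CKD+Fe mice. This difference is taken within a mouse, and all adenine-fed mice lay above all control mice. Summed FPKM of the cytosolic members was 6.10 to 6.71 times that of the mitochondrial genes in control, 10.9 to 13.7 times in CKD and 10.2 to 12.1 times in CKD+Fe mice.

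**Figure D4:**
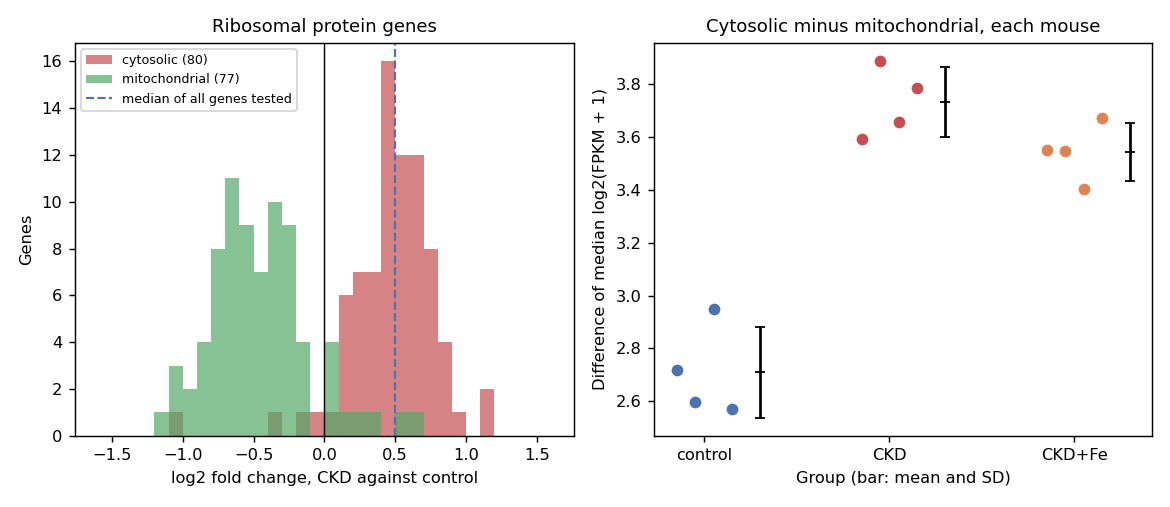
Left, number of genes by log2 fold change of CKD against control for 80 cytosolic and 77 mitochondrial ribosomal protein genes, both chosen by name, with the median of all genes as a dashed line. Right, the median log2(FPKM + 1) of the cytosolic minus that of the mitochondrial genes in each mouse with the mean and SD of the group, 2.57 to 2.95 in control against 3.59 to 3.89 in CKD; the cytosolic median in the left panel turns to -0.082 after median-of-ratios rescaling.

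The table also holds ribosomal protein genes outside the name pattern. *Fau*, made as a fusion with a ubiquitin-like protein, had 0.33 ± 0.22 (SE) in CKD and did not pass. *Rpl36al*, the autosomal copy of *Rpl36a*, measured 284, 266, 317 and 224 FPKM in control and 192, 197, 259.9 and 168 in CKD mice, lower at -0.42 ± 0.16 (SE, adjusted p = 0.0311). *Rack1*, the scaffold on the small subunit, was higher at 0.62 ± 0.18 (SE, adjusted p = 0.00765). After median-of-ratios rescaling *Rpl36al* was still lower, at -0.998 (adjusted p = 0.000245), and *Rack1* had 0.045 (adjusted p = 0.847).

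Genes that make, load and regulate ribosomes were read beside the members, in a comparison where 54.6% of all genes were higher and 13.3% lower. Of 17 elongation factors and other TOP mRNAs 7 were higher and none lower with a median of 0.33, led by *Hnrnpa1* at 1.74 ± 0.12 (SE, adjusted p = 1.08e-07). Of 23 initiation factors 9 were higher and none lower with a median of 0.20; *Eif6*, which keeps free large subunits from joining, was highest at 1.09 ± 0.20 (SE, adjusted p = 0.000385). Of 26 ribosome biogenesis factors 14 were higher and 2 lower with a median of 0.37, from *Nhp2* at -0.91 ± 0.23 (SE, adjusted p = 0.00304) to *Nop56*, a core small nucleolar RNP protein, at 1.04 ± 0.15 (SE, adjusted p = 4.87e-05). RNA polymerase I genes had 5 of 8 higher and 1 lower with a median of 0.47. Of 19 growth control genes 11 were higher and 1 lower with a median of 0.73. *Mtor*, the kinase that drives TOP mRNA translation, was the 1 lower at -1.35 ± 0.17 (SE, adjusted p = 1.79e-05), and *Ddit4*, an mTORC1 inhibitor, was highest at 1.98 ± 0.26 (SE, adjusted p = 2.45e-05). These counts rested on the scaling. After median-of-ratios rescaling, where 28.8% of all genes were higher and 29.3% lower, 2 elongation and TOP genes were higher and 4 lower with a median of -0.25. Initiation factors then had 1 higher and 10 lower with a median of -0.37, and biogenesis factors 1 higher and 7 lower with a median of -0.16. RNA polymerase I genes had 1 higher and 2 lower with a median of -0.073, and growth control genes 7 higher and 5 lower with a median of 0.22. No gene of these lists was called between CKD+Fe and CKD.

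Markers of other kidney cells differed between control and CKD mice. All 9 macrophage markers were higher in CKD, and their summed FPKM was 124 to 256 in control, 1801 to 3792 in CKD and 1683 to 3778 in CKD+Fe mice. All 6 myofibroblast markers were higher, summing to 76.9 to 130.4 in control and 369 to 779.6 in CKD mice. Of 10 proximal tubule markers 9 were lower, with a median of -2.38 and *Kap* lowest at -4.84 ± 0.62 (SE, adjusted p = 1.87e-05). They summed to 70207 to 94686 in control and 1577 to 8597 in CKD mice. *Kap* made up most of this sum in every control and CKD mouse, so the fall of the sum mainly follows that 1 gene. Tubule transcripts were thus present in every mouse. Of 6 distal nephron markers *Aqp2* was lower, and 3 of 4 tested lymphocyte markers were higher, with sums of 2.80 to 5.34 in control and 3.59 to 15.3 in CKD mice. None of the 4 tested red blood cell markers was called. These counts stood beside 54.6% higher and 13.3% lower over all genes. After median-of-ratios rescaling 9 macrophage, 5 myofibroblast and 1 lymphocyte markers were higher and 9 proximal tubule and 2 distal nephron markers lower, with no red blood cell marker called, beside 28.8% higher and 29.3% lower over all genes. No marker of the 6 lists was called between CKD+Fe and CKD. The part of these cells in the members' levels was not tested.

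Ribosomal protein genes have many processed pseudogenes, and the reads were 50 bases from 1 end, so reads shared with such copies make single levels uncertain; how they were divided is not given in the sources used here. The same holds for the close pairs *Rps27* and *Rps27l*, *Rpl36a* and *Rpl36al*.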

How the data were processed

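Whole kidney RNA of 12 mice was sequenced by the authors with a stranded poly(A) kit, as 50-cycle single-end reads. The submitters' processing notes name bcl2fastq 2.19, STAR 2.5.2, Cufflinks 2.1.1 and the genome GRCm38; the annotation release is not given in the sources used here. The deposited table holds FPKM per gene, with 22053 rows, and 30 values in 17 genes that Cufflinks marked as failed, none in a member. FPKM keep no counts, so the depth is unknown and no counting interval is given; low-value steps gave relative depths of 0.681 to 1.0.

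FPKM were taken as log2(FPKM + 1), a pseudocount of 1. The 13148 genes with at least 1 FPKM in 4 or more mice were fitted in limma 3.58.1 (R 4.3.3) with all 12 mice in 1 model, a variance trend and no covariates, two-sided, with Benjamini-Hochberg adjustment over all genes and a threshold of 0.05. The labels name no batch. The same fit was run after subtracting the members' median in each mouse. Paralog ratios were tested by exact two-sided permutation over 70 arrangements. Differences between the groups are between separate mice. The scripts were tested on simulated data. The members and gene lists were chosen with earlier results of these data known. The members named are the 5 with the highest and lowest difference in CKD against control and in CKD+Fe against CKD, the paralog pairs, the RT-qPCR and known-role lists and the 3 most abundant members; other lists are given as counts, medians and their extreme genes. Some genes are not reported here. Alternatives were median-of-ratios, quantile and equal-total scaling, a pseudocount of 0.1, other filters, no variance trend, array weights, only the 2 groups compared, leaving out each mouse, the study's adjusted cutoff of 0.5, and, added after seeing the data, leaving out the 3 mice with the lowest array weight of their group. Start windows came from RefSeq (GRCm38.p6), taking the start nearest to the gene's position in the table, whose positions are given 1-based.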

Additional observations from a re-analysis of the deposited data

Results flagged for a closer look

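Among 129 groups of 4 mice examined, 6 held a mouse whose gap to the nearest other mouse exceeded Dixon's critical share of the group's range, and chance flags about 1 in 20 such groups. *Rplp2*, a stalk protein, stood at 712 FPKM in CKD mouse 110310 and at 600.3 FPKM in CKD+Fe mouse 042702, each far above the other 3 mice of its group. *Rpl22* was low in CKD+Fe mouse 111710 at 445 FPKM, and *Rpl22l1* was low in CKD+Fe mouse 042702 at 141 FPKM. *Rpl3l* was high in control mouse 012811 at 3.95 FPKM. The log2 ratio of *Rpl7l1* to *Rpl7* was low in control mouse 042301 at -4.11, against a highest value of -4.18 in CKD mice.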

How the results depend on the processing

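No paired analysis was possible because the groups share no replicate numbers. The counts of members called in CKD+Fe against CKD were 0 under every alternative run. Except where given above, shares of all genes called under the alternatives are not reported here. In CKD against control, median-of-ratios rescaling gave 2 higher and 6 lower with a median of -0.082; quantile normalization gave 74 higher and 1 lower with a median of 0.82, the members lying 0.85 above all genes; scaling to an equal total gave 74 higher and 1 lower with a median of 0.76. The lower count was 1 with a mean filter of 5 FPKM or with only the 2 groups compared, and the higher count was 71 at the study's adjusted cutoff of 0.5. In CKD+Fe against control, median-of-ratios gave 1 higher and 4 lower with a median of -0.067, quantile normalization 74 higher with a median of 0.76 and 0.80 above all genes, scaling to an equal total 74 higher, the cutoff of 0.5 gave 74 higher and 2 lower, array weights 2 lower and the filter of 5 FPKM 0 lower. Relative to the members' median in CKD, the higher count was 4 with only the 2 groups compared or no variance trend, and array weights gave 11 higher and 19 lower; in CKD+Fe against control these were 3, 3 and, by array weights, 10 lower. The cause was not tested, except that fewer mice or genes enter the 2-group and filtered fits.

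When single mice were omitted, the higher count in CKD ranged from 34 to 61 and the lower from 1 to 2, the members' median from 0.38 to 0.64 and its distance to all genes from -0.12 to 0.12. In CKD+Fe against control the ranges were 29 to 61, 1 to 2, 0.41 to 0.64 and -0.085 to 0.12, and in CKD+Fe against CKD the median ranged from -0.080 to 0.095 and its distance to all genes from -0.085 to 0.11. Relative to the members the ranges were 4 to 9 higher and 6 to 14 lower in CKD, and 3 to 6 higher and 3 to 5 lower in CKD+Fe against control. The ratio difference in CKD ranged from -2.02 to -1.89 for *Rpl3l*, -0.84 to -0.64 for *Rpl7l1*, 0.33 to 0.46 for *Rpl22l1* and -1.04 to -0.96 for *Rps27l*; in CKD+Fe against control from -1.88 to -1.76, -0.69 to -0.50, 0.11 to 0.26 and -1.01 to -0.85; and in CKD+Fe against CKD from 0.071 to 0.20, 0.082 to 0.24, -0.28 to -0.13 and -0.0093 to 0.15, the last turning without CKD+Fe mouse 111710. With 1 mouse omitted, the adjusted p of each of the 4 ratios in CKD against control ran from 0.0327 to 0.114 in the permutation test. The call was lost in 5 of 8 fits for *Rpl22l1* and in 4 of 8 each for *Rpl3l*, *Rpl7l1* and *Rps27l*. None of these differences changed sign. CKD and control mice were separated in full in all 4 ratios, which leaving out a mouse cannot change. With a mouse omitted there are fewer arrangements, and the adjusted p depends on how many tests share the smallest p. The lost calls and the unchanged signs therefore cannot show how far a ratio rests on 1 mouse.

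Differences in CKD that turned after median-of-ratios rescaling were *Rpl10* -0.14, *Rpl11* -0.25, *Rpl14* -0.34, *Rpl19* -0.37, *Rpl22* -0.077, *Rpl32* -0.22, *Rpl35a* -0.54, *Rpl36* -0.42, *Rplp2* -0.36, *Rps15* -0.31, *Rps18* -0.14, *Rps26* -0.15, *Rps27a* -0.018, *Rps29* -0.16 and *Rpsa* -0.022. *Rpl28* turned to 0.24 with quantile normalization, 0.16 with scaling to an equal total and 0.11, 0.034 and 0.028 (range over omitted mice -0.33 to 0.11) without control mouse 042301, CKD mouse 021320 or CKD mouse 120102. *Rpl7l1* turned to 0.22 with scaling to an equal total and 0.049 without CKD mouse 120102 (range -0.18 to 0.049), and *Rplp2* to -0.039 with array weights. Without CKD mouse 110310 *Rplp2* was -0.093 (range -0.093 to 0.35), *Rpl36* -0.091 and *Rpl35a* -0.012. *Rpl35a* was -0.039 and -0.038 without control mouse 012822 or 042310. *Rps29* in CKD+Fe against CKD was -0.0060 without CKD mouse 120102 (range -0.0060 to 0.28). Without the 3 low-weight mice, *Rpl11*, *Rpl32*, *Rps18*, *Rps26* and *Rps29* passed the threshold in CKD. The missing depth limits what low members such as *Rpl3l* can show.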
